A study of Drosophila melanogaster with 6 samples.

Results

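The Irre cell recognition module is a set of 4 immunoglobulin-superfamily membrane proteins of Drosophila, encoded by kirre, rst, hbs and sns. Its genes were found in the count data by the FlyBase identifiers that the gene tables pair with these symbols, and 3 of the 4 names (sns, FBgn0024189; kirre, FBgn0028369; rst, FBgn0003285) matched, out of 17471 genes counted. The fourth, hbs, is not analysed here, because the identifier the tables give it (FBgn0287864) matched no entry of the counts. This does not show that hbs was absent from the counts, because their annotation release is not given.

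Members of the module bind one another across the gap between neighbouring cells. Kirre and Roughest (rst), relatives of the vertebrate NEPH proteins, sit on one cell, and Sticks and stones (sns) and Hibris (hbs), relatives of vertebrate nephrin, usually sit on the other. The module is best known from the recognition and fusion of myoblasts, the sorting of cells in the pupal eye, the filtration slit of nephrocytes and the routing of visual axons, and it acts through adaptors that reorganise actin beneath the contact.

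The samples were anterodorsal-lineage projection neurons (adPNs), which carry odour input from the glomeruli of the antennal lobe to higher brain centres. They were 3 libraries labelled acj6 mutant (titled acj66) and 3 labelled wild-type, all from pupae 36 to 40 h after puparium formation and all made by a modified SMART-seq2 protocol. acj6 encodes a POU-domain transcription factor of this lineage, and the series title sets the question of how it directs dendrites through cell-surface proteins. The labels give neither the sex of the animals nor the driver or the lesion. They do not say if each library had its own animals, and the spread behind the p-values may therefore be technical.

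Mutant-labelled libraries held 30980945 to 38279909 gene counts and wild-type ones 24467328 to 34547549. acj6 itself was at 276, 248 and 228 CPM (read counts scaled to a common library total) in mutant-labelled replicates 1 to 3 and at 146, 143 and 158 CPM in wild-type replicates 1 to 3. Since the labels name no lesion, this level leaves the genotype label unchecked. The adPN homeobox gene C15 (159 ± 19.1 CPM in mutant-labelled and 162 ± 30.2 CPM in wild-type libraries, SD, n = 3 each) and the neuronal gene elav (253 ± 20.7 and 286 ± 21.6 CPM) were present in every library. Multiply mapped alignments numbered 2.2 to 3.0 per gene count in mutant-labelled libraries and 3.2 to 4.2 in wild-type ones, and the part of this in the results was not tested.

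sns, the nephrin-like partner, rose in the mutant-labelled libraries, and kirre and rst were also counted higher there without passing the test. Of the 3 members, 1 was called higher and 0 lower, where a call is an adjusted p under 0.05 in edgeR's quasi-likelihood test over 9229 tested genes, of which 3.07% were called higher, 1.33% lower and 4.4% in either direction. In all 3 members the lowest mutant-labelled library stood above the highest wild-type library, which was so for 11.7% of the genes tested, while 23.2% did not overlap in one direction or the other. In these bulk samples, more cells with a transcript and more transcript per cell cannot be told apart.

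sns had 292, 322 and 296 CPM in mutant-labelled replicates 1 to 3, against 227, 167 and 166 CPM in wild-type replicates 1 to 3. The 3 mutant-labelled libraries lay close together, and wild-type replicate 1 was the highest of its group without reaching them. The means were 303 ± 16.6 and 187 ± 34.8 CPM (SD, n = 3 each), a log2 fold change of 0.70 ± 0.15 (SE), or 1.62-fold with a 95% interval of 1.29 to 2.04. edgeR's test gave it an adjusted p of 0.033. The call was lost when any library other than wild-type replicate 1 was left out, with log2 fold changes of 0.62 to 0.73 and adjusted p-values of 0.0772 to 0.127. With each library's trend on transcript length removed, sns was at a log2 fold change of 0.39 with an adjusted p of 0.149.

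kirre, which on founder myoblasts attracts fusion partners, had 30.4, 25.8 and 22.2 CPM in mutant-labelled replicates 1 to 3, against 17.1, 14.6 and 8.42 CPM in wild-type replicates 1 to 3. No wild-type library reached the lowest mutant-labelled one. Its log2 fold change was 0.97 ± 0.32 (SE), with a 95% interval of 1.17-fold to 3.25-fold and its adjusted p 0.156 in edgeR's test. Left-out libraries moved the log2 fold change between 0.72 and 1.19, and the length correction set it to 0.84.

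rst, a close relative of kirre that also patterns the eye and the optic lobe, was the least abundant and the most variable of the 3 members. It had 428, 209 and 805 reads in mutant-labelled replicates 1 to 3, against 90, 215 and 128 reads in wild-type replicates 1 to 3. After scaling for depth these were 11.4, 6.99 and 21.7 CPM, against 3.28, 6.11 and 5.08 CPM. Mutant-labelled replicate 3 was far above the rest, and mutant-labelled replicate 2 was only just above wild-type replicate 2. Its log2 fold change was 1.47 ± 0.51 (SE), with a 95% interval of 1.24-fold to 6.16-fold and its adjusted p 0.17 in edgeR's test. Without mutant-labelled replicate 3 it was 0.94, with an adjusted p of 0.499.

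**Figure D1:**
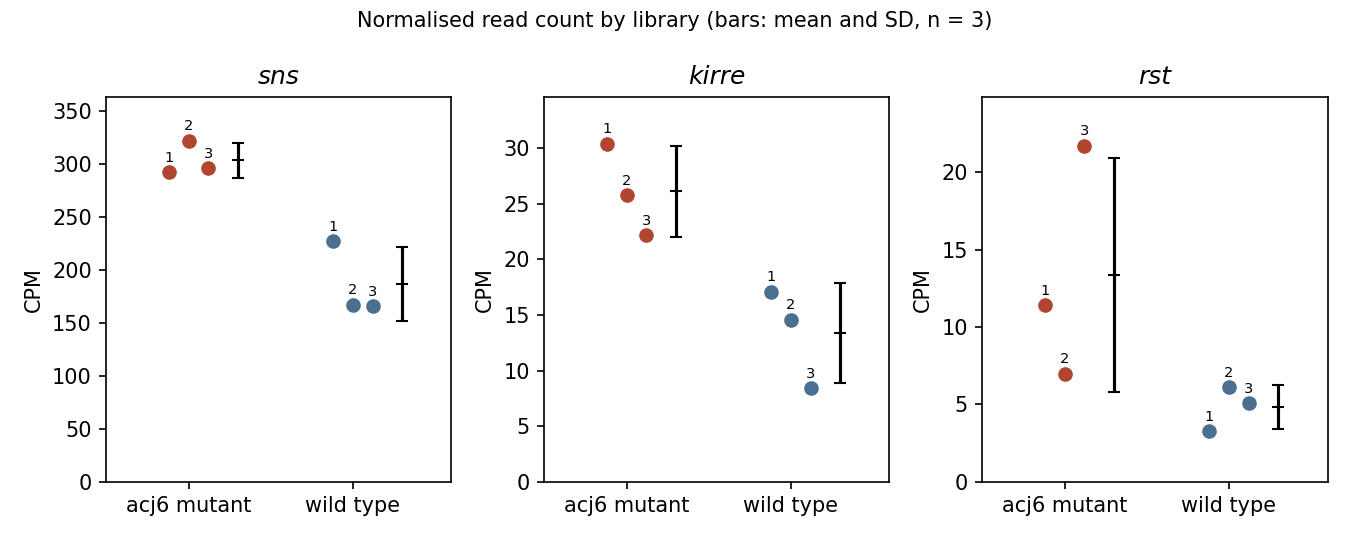
Normalised read count (CPM, linear axes that start at 0) of sns, kirre and rst in each library, numbered by replicate, with the acj6 mutant-labelled libraries on the left and the wild type on the right of each panel and the mean ± SD (n = 3) beside them. The mutant-labelled libraries of sns lie between 292 and 322 CPM, above wild-type libraries at 166 to 227 CPM, while rst in mutant-labelled replicate 3 (21.7 CPM) stands apart from the other libraries.

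The members did not share one order of libraries within a group. Among mutant-labelled libraries sns was highest in replicate 2, kirre in replicate 1 and rst in replicate 3. Among wild-type libraries sns and kirre were highest in replicate 1, where rst was lowest.

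All 3 members have long transcripts, and the fold changes of tested genes varied with transcript length. The median transcript length was 8544 bases for sns, 5534.5 for rst and 4366 for kirre, against 1953.5 over the tested genes, which put the members at or above the 87.5th percentile of length. In the fifth of tested genes with the longest transcripts (3525 bases or more), the median log2 fold change was 0.23, 10.1% of the genes were called, and 23.9% had mutant-labelled libraries all above the wild-type ones. In the fifth with the shortest transcripts those values were 0.01, 1.43% and 7.36%. With the length trend removed, 0 of the 3 members were called by edgeR's test, and all 3 log2 fold changes stayed above 0.

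**Figure D2:**
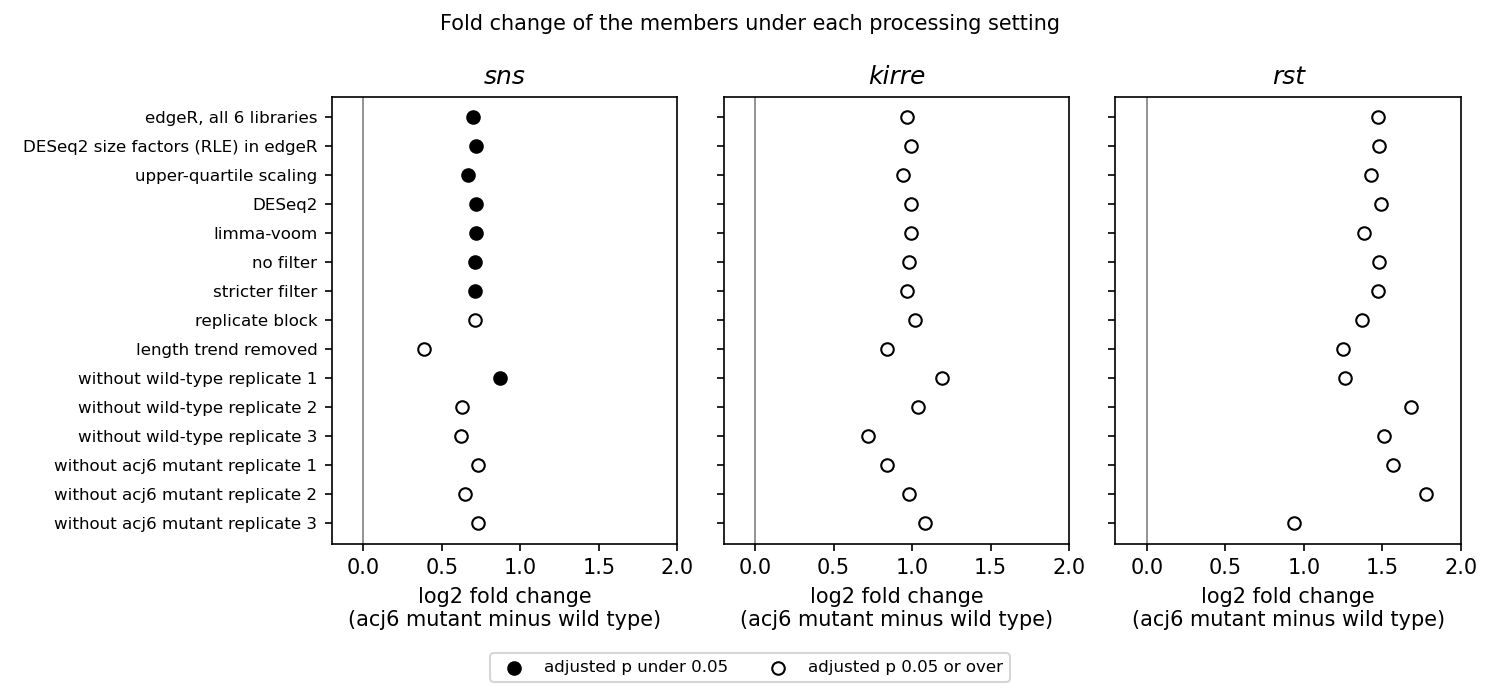
Log2 fold change (acj6 mutant-labelled minus wild type, horizontal axis) of sns, kirre and rst in the edgeR fit of all 6 libraries and under 14 other settings, 1 per line, with filled points for an adjusted p under 0.05 and open points otherwise. sns ranges from 0.39 to 0.87 and loses its call in 7 of the 14 settings, while kirre (0.72 to 1.19) and rst (0.94 to 1.78) are open throughout.

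The nephrin-like side was the more abundant on a per-length scale. sns was at 35.5 ± 1.95 CPM per kb of median transcript length in mutant-labelled libraries and at 21.8 ± 4.07 CPM per kb in the wild type (SD, n = 3 each). kirre was at 5.98 ± 0.934 and 3.06 ± 1.02 CPM per kb, and rst at 2.42 ± 1.37 and 0.872 ± 0.258 CPM per kb. The order of the levels was therefore sns, kirre, rst in each of the 6 libraries, with no overlap between neighbours in either group. Among tested genes with a known length, sns stood at the 72.6th percentile of this level in mutant-labelled libraries and the 63.3rd in the wild type, kirre at the 40.3rd and 30.6th, and rst at the 26.8th and 15.2nd.

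Within the summed level of the 3 members per kb, sns made up 80.8% ± 2.78 in mutant-labelled and 84.7% ± 2.96 in wild-type libraries (SD, n = 3 each). kirre made up 13.6% ± 2.27 and 11.7% ± 2.75, and rst 5.53% ± 3.17 and 3.55% ± 1.44. The groups overlapped in each of these shares. hbs, the other nephrin-like gene, is outside these shares.

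**Figure D3:**
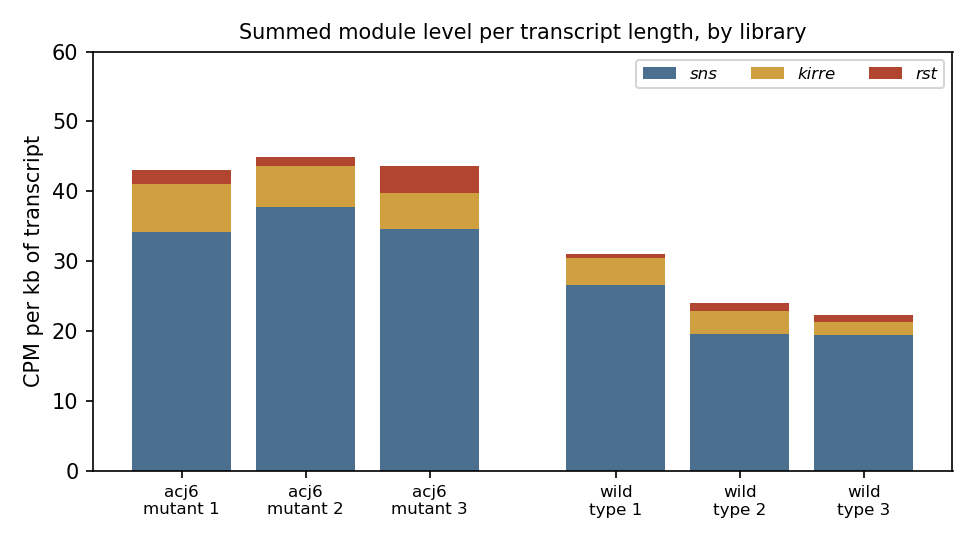
Level of sns, kirre and rst in CPM per kb of median transcript length, stacked for each library, with the 3 acj6 mutant-labelled libraries on the left and the 3 wild-type libraries on the right. sns makes up most of each bar, from 79.1% to 87.2%, and every mutant-labelled bar is taller than every wild-type bar.

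The NEPH-like pair shares a locus. In the Ensembl gene models kirre spans 394149 bases of the X chromosome, and rst lies inside that span on the opposite strand, so no gene lies between them. kirre has 7 annotated transcripts and a longest coding sequence of 956 codons, rst 2 transcripts and 764 codons, and sns, on chromosome arm 2R, 3 transcripts and 1542 codons. No exon of sns, kirre or rst overlaps an exon of another annotated gene, and in these models the exons of kirre and rst do not share a base.

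The other genes inside kirre, picked out once the gene models had been read, were mostly near 0. Of 21 such genes with an entry in the counts, 16 were too low to test and did not pass 1.02 CPM in any library. The other 5 were tested and none was called by edgeR, DESeq2 or limma-voom (0 with an unadjusted p under 0.05 in edgeR). The most abundant were CG32795, at 19.6 ± 4.65 CPM in mutant-labelled and 20.4 ± 5.69 CPM in wild-type libraries, and the eye-pigment transporter gene w, at 14 ± 5.55 and 9.74 ± 2.46 CPM. Notch (N), which follows kirre on the same strand, was at 4.96 ± 0.84 CPM in mutant-labelled and 6.39 ± 1.97 CPM in wild-type libraries, with a 95% interval of its log2 fold change from -1.48 to 0.74.

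Tested genes of the X chromosome had a median log2 fold change of 0.01 and those of chromosomes 2 to 4 one of -0.01, with 4.68% and 4.36% called. The X-linked dosage-compensation RNA roX1 was at 2920, 3320 and 2760 CPM in mutant-labelled replicates 1 to 3 and at 1660, 1550 and 1390 CPM in wild-type replicates 1 to 3, while roX2 overlapped between the groups (484 ± 54.8 and 500 ± 64.4 CPM). The part of roX1 in the values of kirre and rst was not tested.

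The module signals to actin through adaptors first worked out in fusing myoblasts, and of the 20 adaptor and actin genes listed, all of them tested, Cyfip rose and no other passed edgeR's test. That 1 call is 5.0% of the list, against 4.4% of all tested genes. The count depended on the tool and the filter, with 8 of the 20 called by DESeq2 (4 higher and 4 lower), which called 10.2% of all genes, and 4 higher with no filter, where 3.97% of all genes were called. The median log2 fold change was -0.03, against -0.01 over all tested genes. The groups did not overlap for 3 genes that were higher and 8 that were lower in the mutant-labelled libraries, against 11.7% and 11.5% of tested genes.

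Cyfip (FBgn0038320, also called Sra-1) encodes a subunit of the WAVE complex, which switches on branched actin growth. It had 352, 351 and 337 CPM in mutant-labelled replicates 1 to 3, against 174, 165 and 128 CPM in wild-type replicates 1 to 3. The groups were far apart and the log2 fold change was 1.15 ± 0.14 (SE), with an adjusted p of 0.0049 in edgeR's test. Its exons overlap those of Nagk on the other strand over 9.9% of their length, and the strand setting of the counting is not given. The other subunits were not called. SCAR, which activates Arp2/3, was at 46.1 ± 2.53 and 69.9 ± 4.42 CPM (log2 fold change -0.60 ± 0.16, adjusted p 0.0763), and Abi, Hem and HSPC300 had log2 fold changes of -0.24, 0.13 and 0.00.

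Of the adaptors that act close to the receptors, rols, which links Kirre to the cytoskeleton at the fusion site, ranged from 1.54 to 19.6 CPM in mutant-labelled and from 3.01 to 12.9 CPM in wild-type libraries. mbc, a Rac exchange factor, was at 17.5 ± 3.26 and 23.3 ± 4.75 CPM, and its partner Ced-12 (the ELMO protein) at 569 ± 76.5 and 323 ± 92.7 CPM, with an adjusted p of 0.0655. The Rac gene Rac1, the most abundant gene of the list over both groups, was at 425 ± 22.5 CPM in mutant-labelled and 501 ± 39.7 CPM in wild-type libraries (log2 fold change -0.24 ± 0.10, adjusted p 0.283).

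The adaptors Crk and dock had log2 fold changes of -0.37 and -0.47 (adjusted p 0.146 and 0.0928 in edgeR's test), each with no overlap between the groups. Vrp1 (the WASp-interacting protein) had one of 0.51 (adjusted p 0.0643) and blow one of 1.26 (adjusted p 0.114). WASp itself had one of 0.42 (adjusted p 0.571), with overlapping groups. None of these genes passed edgeR's test. blow overlapped between the groups, with mutant-labelled replicate 3 (47.6 CPM) below wild-type replicate 3 (50.3 CPM).

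No gene for a junction protein that works with the module in the eye or in nephrocytes passed the test. By edgeR 0 of 4 tested genes were called (2 with an unadjusted p under 0.05, 1 called by DESeq2 and 0 by limma-voom). The scaffold gene pyd, the fly ZO-1, was the most abundant, at 346 ± 23.1 CPM in mutant-labelled and 258 ± 53.8 CPM in wild-type libraries (log2 fold change 0.43 ± 0.15, adjusted p 0.185). cno, another junction scaffold, had 44.6, 43.8 and 86.3 CPM in mutant-labelled libraries, against 18.8, 10.5 and 30.0 CPM in wild-type ones (1.56 ± 0.41, adjusted p 0.0763). The mutant-labelled libraries were all above the wild-type ones for 3 of the 4 tested genes, cno, pyd and cindr (a CD2AP-like adaptor), against 11.7% of all tested genes and 23.9% of those with the longest transcripts. The cadherin gene shg overlapped between the groups, at 7.07, 0.569 and 1.76 CPM in mutant-labelled and 3.61, 4.29 and 1.15 CPM in wild-type replicates 1 to 3 (log2 fold change 0.05 ± 0.97). Mec2, the podocin-like gene of the nephrocyte filter, was too low to test, with 2, 67 and 113 reads in mutant-labelled libraries and 2, 1 and 0 in wild-type ones.

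hbs is known for helping Notch cleavage, and the genes of that step did not pass the test. By edgeR, DESeq2 and limma-voom 0 of 6 tested Notch-processing genes were called, and 0 had an unadjusted p under 0.05 in edgeR. The most abundant was the gamma-secretase subunit gene aph-1, at 132 ± 30.5 CPM in mutant-labelled and 126 ± 19.9 CPM in wild-type libraries. The narrowest interval was that of kuz, the ADAM protease that cuts Notch first, whose log2 fold change lay between -0.27 and 0.47. Psn matched no entry of the counts by identifier, which does not show its absence, and is not analysed here.

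**Figure D4:**
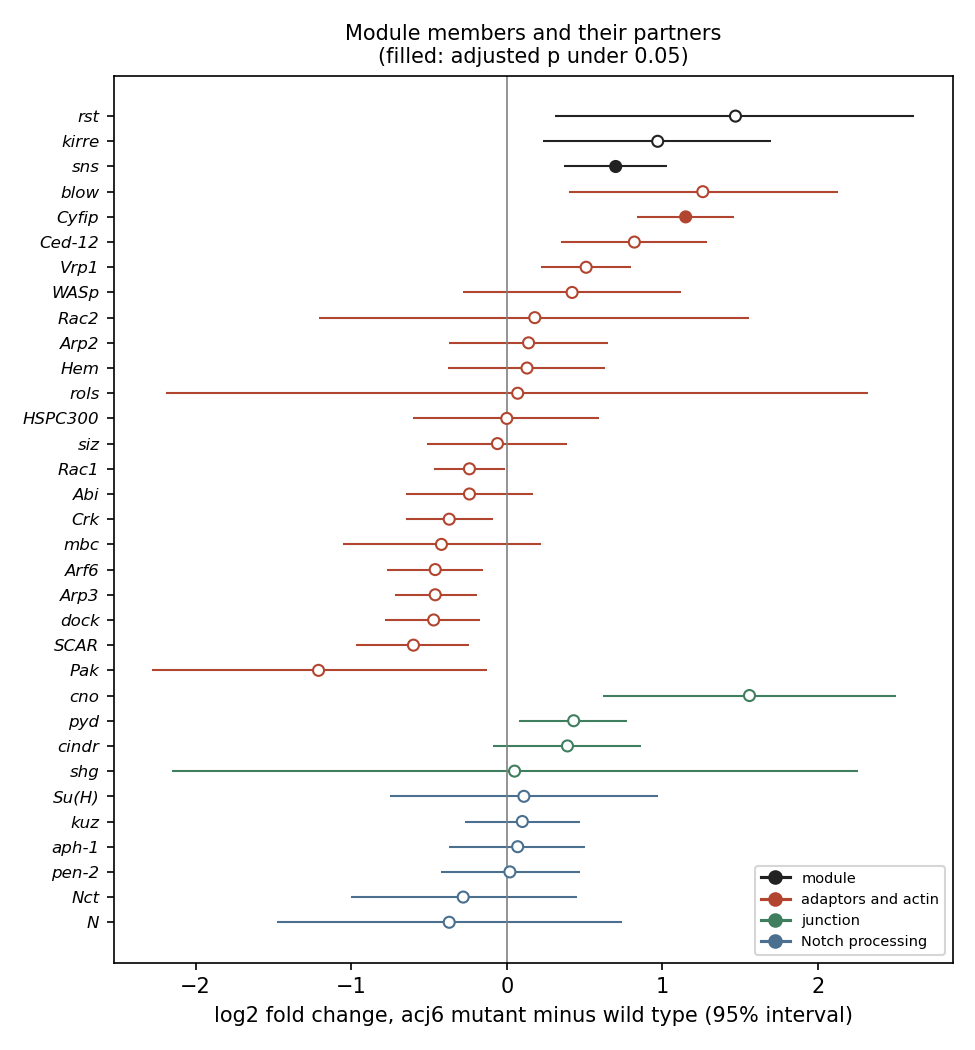
Log2 fold change (acj6 mutant-labelled minus wild type) with its 95% interval for the 3 module members, 20 adaptor and actin genes, 4 junction genes and 6 Notch-processing genes, with filled points for an adjusted p under 0.05. sns (0.70) and Cyfip (1.15) are the filled points, and the intervals of kirre (0.23 to 1.70) and rst (0.31 to 2.62) lie above 0 although neither passed the adjusted threshold.

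Other immunoglobulin-superfamily recognition genes, a list chosen with earlier results of these data known, gave a scale for the module. Of 22 tested, 6 were called higher and 2 lower, or 36.4%, against 4.4% of all tested genes and 10.1% of those with the longest transcripts. Leaving out 1 library lowered these 8 calls to between 4 and 7, with 4 without wild-type replicate 2 or mutant-labelled replicate 2 and 5 without wild-type replicate 3. Among the 25 genes of this list and the module, ranked by level per kb, sns ranked 11 in mutant-labelled libraries and 13 in wild-type ones, kirre 21 and 24, and rst 25 in both. The most abundant of the list, Dscam4, a homophilic recognition receptor, was at 865 ± 78.8 CPM in mutant-labelled and 436 ± 50.9 CPM in wild-type libraries. Of the called genes with the smallest p-values, Dscam2, Dscam3 and Dscam4 had log2 fold changes of 0.65, 0.91 and 0.99, and Lac had one of -1.74. With the length trend removed these were 0.36, 0.62, 0.74 and -1.66, and 6 of the 22 genes were called, against 3.86% of all tested genes.

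The genes whose log2 CPM over the 6 libraries followed sns most closely were Rbp, which encodes an active zone protein (Pearson's r 0.995), Idh3g, a subunit of isocitrate dehydrogenase (0.992), and tty (0.99). Among those closest to kirre were tun (0.993) and Ada2a, a subunit of histone acetyltransferase complexes (0.99). Those closest to rst were Su(Tpl), a transcription elongation factor (0.991), Scp2, a calcium-binding protein (0.99), and ix, a Mediator subunit (0.986). These r values describe 6 libraries that share their genotype groups and depths, and they ignore the size of a change. Log2 fold changes were 0.74 for Rbp, 0.08 for Idh3g and 0.69 for tty, against 0.70 for sns. They were 0.34 for tun and 1.36 for Ada2a, against 0.97 for kirre. For Su(Tpl), Scp2 and ix they were 0.58, 0.82 and 0.51, against 1.47 for rst. An r of at least 0.95 was reached by 70, 46 and 10 genes for sns, kirre and rst, among 5941 or 5942 genes averaging at least 10 CPM.

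Markers of muscle, where the module drives fusion, were low, and their sum was higher in every mutant-labelled library than in any wild-type one. The 11 muscle markers, all tested, summed to between 33.1 and 60.4 CPM in mutant-labelled libraries and between 20.7 and 32.1 CPM in wild-type ones. Of the 11, 8 had a log2 fold change above 0, with a median of 1.53, and no single one passed the adjusted threshold in edgeR's test (3 at an unadjusted p under 0.05, with 2 calls by DESeq2 and 0 by limma-voom). sls, a titin-like sarcomere gene, had 12.8, 5.62 and 19.4 CPM in mutant-labelled replicates 1 to 3, against 1.9, 1.82 and 5.0 CPM in wild-type replicates 1 to 3. Its mutant-labelled libraries stood in the same order as those of rst, and its wild-type libraries did not. lmd, a factor of fusion-competent myoblasts, was at 8.03 ± 4.2 CPM in mutant-labelled and 1.74 ± 1.68 CPM in wild-type libraries, also with no overlap. Mhc, the muscle myosin heavy chain, was at 0.574 ± 0.472 and 0.368 ± 0.217 CPM, and Act88F, a flight muscle actin, at 1.03 ± 0.476 CPM with no read in any wild-type library. The most abundant, Mef2, a muscle transcription factor also found in neurons, was at 7.95 ± 5.21 and 13 ± 2.34 CPM. The part of muscle RNA in the values of sns, kirre and rst was not tested.

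The 9 glial markers summed to between 489 and 529 CPM in mutant-labelled libraries and between 618 and 697 CPM in wild-type ones, most of it from nrv2 (315 ± 7.6 and 433 ± 35.4 CPM), which fell, while repo, the defining glial factor, was at 1.57 ± 0.906 and 1.86 ± 1.11 CPM. Of 8 hemocyte and nephrocyte markers, He and Klf15 had no read in any library, and the summed level of 3900 to 5490 CPM in mutant-labelled and 4720 to 5210 CPM in wild-type libraries was almost all Pxn (4600 ± 811 and 4890 ± 257 CPM). Of the 4 tested, 1 had a log2 fold change above 0 and 3 below, with 0 called by edgeR's test. The 1 above 0, Hml, had 28, 14 and 24 reads in mutant-labelled and 1, 0 and 0 in wild-type libraries (adjusted p 0.11).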

How the data were processed

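Each file holds the authors' whole-number read counts per gene of 1 library, deposited without normalization. Tools listed in the submitters' processing notes are HTSeq 0.11.2, STAR 2.5.4 and bcl2fastq 2.19.0.316. No source used here gives the genome build, annotation release or strand setting, so no coordinates are printed. Symbols came from the gene-name table (17242 of 17471 identifiers matched, 229 did not), and arms, lengths and exon overlaps from the Ensembl 115 models by identifier. The 96 spike-ins, 3 transgenes and 5 summary entries stayed out. Genes were kept with filterByExpr (9229), scaled with TMM and tested with edgeR 4.0.16 (glmQLFit, glmQLFTest, R 4.3.3) on genotype, two-sided, with Benjamini-Hochberg adjustment over all genes tested. CPM values are TMM-scaled. SEs are the log2 fold change over the square root of the F statistic. Alternatives used limma 3.58.1 and DESeq2 1.42.0, other scalings and filters, a replicate block, a length correction and left-out libraries. The test was tried on simulated counts. In a library, 3 reads equal 0.0797 to 0.119 CPM. Reads carry no molecular identifiers. Replicates differed by more than sampling noise (chi-square over its degrees of freedom 55.2 to 106).

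The members and gene lists were chosen with earlier results of these data known. Named genes are the members, acj6, up to 4 called genes with the smallest p and the most abundant gene of each list, and the 3 genes most like each member, of which 1 is not reported here. Other genes of the lists were named for their role after their values were seen. From the recognition list, 1 name matched no gene.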

Additional observations from a re-analysis of the deposited data

How the results depend on the processing

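The log2 fold changes of sns, kirre and rst stayed above 0 in all 14 alternatives, and kirre and rst passed the threshold in none (adjusted p 0.0521 to 0.325 and 0.0588 to 0.499). sns kept its call in 7, and its log2 fold change was 0.71 (adjusted p 0.0533) with the replicate block and 0.39 (0.149) with the length trend removed, each with 0 members called. Leaving out 1 library gave sns 0.62 to 0.87 and 0 to 1 members called. The count of all called genes was 406 and became 940 with DESeq2, 143 to 249 with 1 library left out, and 293 with the replicate block. With the length trend removed 61.2% of the calls were higher, against 69.7%. Adaptor and actin calls were 8 with DESeq2 (4 higher and 4 lower), 4 with no filter, 3 with the length trend removed, 2 with limma-voom, 2 with the replicate block and 1 to 2 with 1 library left out. Junction calls were 1 with DESeq2, 1 with no filter, 1 with the replicate block and 0 to 1 with 1 library left out. Recognition-list calls were 13 with DESeq2, 6 with the length trend removed and 4 to 7 with 1 library left out. By the longest transcript, the mutant-labelled share was 10.6% for kirre and 84.2% for sns. The cause of these shifts was not tested. Same-numbered libraries did not deviate together (correlations 0.0152, 0.00411 and 0.0472 over genes), and not every library correlated best with its own number. These values do not show that the numbers pair the libraries. They cannot settle it, because each deviation is from a mean of only 3 libraries. rst had 90 to 805 reads a library, and reads without molecular identifiers do not give the number of molecules. 3 libraries a group limit every value.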

Other observations

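The remaining cell markers set the module's values in context. The 8 markers of adPNs or of neurons more widely were acj6, C15, kn, elav, nSyb, brp, ChAT and VAChT, so their sum does not measure adPN identity. Of these, kn, brp and acj6 were called higher by edgeR's test. The list summed to 9260 to 9360 CPM in mutant-labelled and 6160 to 6660 CPM in wild-type libraries. Most of that sum was brp (5850 ± 89.8 and 3790 ± 157 CPM), and 4 of the 8 genes had a log2 fold change above 0 and 4 below, with a median of 0.04. The 4 markers of lateral and ventral projection neurons (most abundant VGAT) summed to 28.1 to 33.4 CPM in mutant-labelled and 24.4 to 56.5 CPM in wild-type libraries. The 6 photoreceptor and optic markers summed to 10.6 to 12.8 CPM in mutant-labelled and 5.47 to 8.62 CPM in wild-type libraries, with chp the most abundant over both groups (7.29 and 1.33 CPM on average). The other 4 tested had log2 fold changes below 0, and the median of the 5 was -0.15. The 7 epithelium and cuticle markers were listed with earlier results of these data known. They summed to 2.73 to 4.17 CPM in mutant-labelled and 24.1 to 117 CPM in wild-type libraries. Cpr72Eb, Cpr100A, Lcp65Ad and Cpr51A were called lower by edgeR's test, with 4 calls by DESeq2 and 0 by limma-voom. The other tested gene, grh, was higher in every mutant-labelled library without a call (2.59 ± 1.06 against 1.02 ± 0.323 CPM). The part of the cells marked by these lists in the values of sns, kirre and rst was not tested.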
